A study of Mus musculus with 24 samples.

Results

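The loss of Rb in small intestinal crypts that already lacked E2f1, E2f2 and E2f3 was read from 6 of the 24 Affymetrix mouse arrays of the study. The 3 QKO arrays came from crypts labelled E2f1-/-;E2f2-/-;E2f3-/-;Rb-/-, and the 3 TKO arrays from crypts labelled as losing E2f1, E2f2 and E2f3 only. Both groups thus share the loss of the 3 E2f genes, and Rb is the labelled difference. All mice were of the strain C57BL/6;FVB, were 2 months old, and had received an intraperitoneal injection of beta-napthoflavone, a ligand of the aryl hydrocarbon receptor, 7 days before harvest. Neither the driver of the deletions nor the stretch of intestine sampled is named in the labels. QKO and TKO villi, and the Rb and WT crypts (Rb-/- and wild type, with the E2f genes present), served as 2 further comparisons with 3 arrays a group. Values are log2 as deposited, and 1 probe set stood for each of 18193 genes, namely its brightest by the mean of the 24 arrays.

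Rb, the protein of the gene Rb1, binds E2f transcription factors and holds back the genes they control, many of which serve DNA replication and division. E2f1, E2f2 and E2f3 are the members usually described as activators. E2f4 and E2f5 act mainly as repressors with the Rb relatives Rbl1 (p107) and Rbl2 (p130), and E2f6, E2f7 and E2f8 repress without binding Rb. Crypts hold the stem cells and the dividing progenitors of the intestinal epithelium, and villi carry its differentiated cells. The comparison asks what the loss of Rb still changes when the 3 activator E2f genes are missing.

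Several arrays stood apart in ways that the groups do not name. The median over all probe sets was 5.17 on QKO crypts 2 and 5.26 on QKO villi 3, against 4.97 to 5.08 on the other 22 arrays. The Y-linked gene Eif2s3y read 3.33 on TKO crypts 1 and 9.41 to 10.06 on the other 5 crypt arrays compared, so TKO crypts 1 came from a female and the others from males. Bacterial poly-A controls, added before labelling, averaged 11.55 on TKO crypts 1, 10.26 and 10.33 on the other TKO crypt arrays and 9.70 to 10.37 on the QKO crypt arrays. The Actb probe sets at the 3′ end read above those at the 5′ end by 0.97, 0.93 and 0.86 on the TKO crypt arrays and by 1.11, 1.15 and 1.20 on the QKO crypt arrays, with no overlap; the part of this sign of RNA quality in the results was not tested. Correlations between arrays of a group lay from 0.989 to 0.992, and no pair of arrays held identical values. Separate animals are not stated in the labels for the arrays of any group, so p-values measure the spread between these samples, which may be partly technical. In bulk RNA, more cells of a type and more RNA per cell cannot be told apart.

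The label of Rb loss was checked on Rb1 first. The brighter Rb1 probe set read 9.95, 9.71 and 9.74 on the TKO crypt arrays and 8.13, 8.18 and 8.23 on the QKO crypt arrays. All QKO arrays lay below all TKO arrays. Rb1 was 3.07-fold lower in QKO, a log2 difference of -1.62 ± 0.41 (SE, n = 3 arrays a group), with an adjusted p of 0.049 from limma over all genes. This p lies close to the threshold of 0.05, and the call was lost when any one of the 6 arrays was left out, although the difference then stayed between -1.66 and -1.54. The SE pools the spread of all 8 groups; with only the TKO and QKO crypt arrays in the fit it was 0.14 and the adjusted p 0.0018. The dimmer Rb1 probe set went the other way, from 3.66, 3.73 and 3.74 in TKO to 4.33, 4.35 and 4.35 in QKO. The labels do not name the deleted part of Rb1, and a probe set outside it would check nothing. E2f1, E2f2 and E2f3, lost in both groups by label, differed by -0.07 ± 0.19, 0.18 ± 0.19 and 0.30 ± 0.21, and none of these differences was called. Since both groups share this loss, their difference does not check it.

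Of the 18193 genes, 292 (1.61%) passed an adjusted p under 0.05 in QKO minus TKO crypts, and 3147 had an unadjusted p under 0.05. Rises made up most of the calls: 259 genes (1.42%) were higher in QKO and 33 (0.181%) lower. The called rises had a median log2 difference of 0.82, and 84 of them reached at least 1, that is a doubling. The called falls had a median of -0.91, and 14 of them reached a halving. The median of all genes was 0.08 above 0, and it was -0.01 after quantile normalization. That scaling called 94 rises and 62 falls, so rises were 60.3% of its calls and 88.7% of the calls on the deposited scale; 120 genes were called on both. Without QKO crypts 2, the array with the high median, 78 rises and 15 falls were called. Without TKO crypts 1 the counts were 88 and 12. Without QKO crypts 1 they were 110 and 15, and without TKO crypts 3 they were 95 and 13. No direction was reversed among the 292 genes in any of these fits. Leaving out 1 array cannot reverse a gene whose groups do not overlap. That held for 254 of the 259 rises and all 33 falls, against 14.8% and 5.94% of all genes. In all 6 fits that each left out an array, 59 genes were called.

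**Figure D1:**
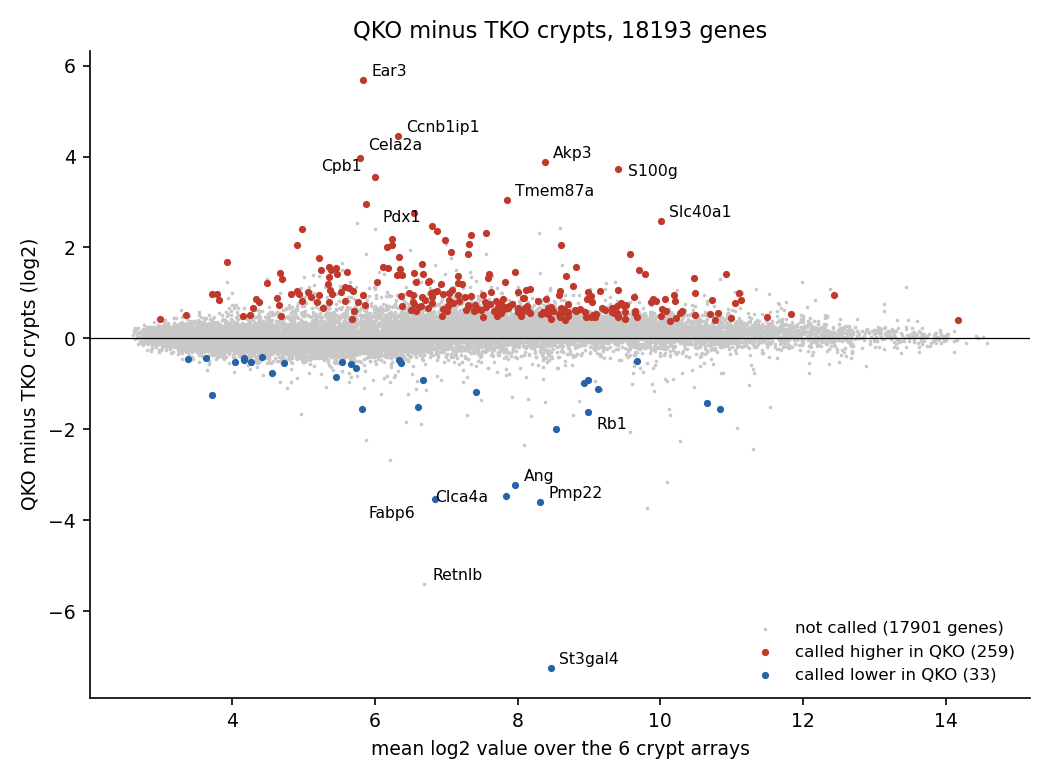
QKO minus TKO crypts (log2) plotted against the mean log2 value over the 6 arrays, with 1 point per gene. Red and blue points are the 259 rises and 33 falls called at an adjusted p under 0.05; St3gal4 has the lowest value (-7.26) and Ear3 the highest (5.68).

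Genes of DNA replication and division, the best known targets of E2f proteins, gave no call. Only 1.61% of all 18193 genes were called, so a list of this size is not set apart by holding none. An unadjusted p under 0.05 was reached by 3147 of all genes. Of the 58 G1/S and replication genes that were measured, 0 were called by limma and 2 had an unadjusted p under 0.05. Their differences ran from -0.21 to 0.40 with a median of 0.17, beside 0.08 for all genes, and the median was 0.01 after quantile normalization. Mcm6, a subunit of the replicative helicase, read 11.25, 11.55 and 11.18 in TKO and 11.44, 11.51 and 11.55 in QKO. Cdc6, which loads that helicase onto origins, read 8.03, 8.77 and 8.02 in TKO and 8.44, 8.65 and 8.20 in QKO. The groups overlapped for both genes, and the differences were 0.17 ± 0.24 and 0.15 ± 0.25. Ccne1, the cyclin E that drives entry into S phase, differed by 0.27 ± 0.32. Timeless, a component of the replication fork, had a difference of 0.40 ± 0.15 (adjusted p = 0.19), among the largest of the list. The median SE of the list was 0.18, so differences of that size in single genes were not detectable in this fit with 3 arrays a group. The SE pools the spread of all 8 groups. These include WT crypts 3 and Rb crypts 2, whose Rb1 values contradict their labels, as given below. Without these 2 arrays the SE of Ccne1 in Rb minus WT was 0.23, beside 0.32 here. QKO minus TKO was not refitted without them.

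Genes of mitosis gave no call either, again beside 1.61% of all genes. Of 59 measured genes of G2/M and mitosis, 0 were called and 2 had an unadjusted p under 0.05. The median was 0.04, and it was -0.15 after quantile normalization, so the list has no settled direction. Mki67, a marker of dividing cells, read 9.51 to 10.32 in TKO, and its highest QKO array lay inside that range while the lowest read 8.77 (-0.30 ± 0.29). Cdk1, the kinase of mitotic entry, read 10.11, 10.51 and 10.04 in TKO and 9.92, 10.47 and 10.44 in QKO. The spread between arrays of a group exceeded the difference between the groups for both. In villi, 7 genes of the same list were called lower in QKO than in TKO and 0 higher, with a median of -0.55, and 5 of the 58 G1/S genes were called lower and 0 higher, with a median of -0.21. Among all genes 1.17% were called lower in villi. The difference between the compartments was called for none of the genes of either list.

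The promoters of these genes were searched for the E2f site, to show which genes carry the letters that E2f proteins are known to bind. The motif was any of TTTGGCGC, TTTCCCGC, TTTGGCGG, TTTCGCGC, TTTCCCGG or TTTGCCGC on either strand, within 250 bases before to 50 bases after the start of transcription in RefSeq (GRCm38.p6). Mcm6 held 3 matches, of which a pair overlap in 1 run, and Cdc6 held 1; the matches are in capitals. The Mcm6 promoter lies at chr1:128359656-128359955 on the minus strand and the Cdc6 promoter at chr11:98907901-98908200 on the plus strand. Both are printed 5′ to 3′ along the gene.
Mcm6: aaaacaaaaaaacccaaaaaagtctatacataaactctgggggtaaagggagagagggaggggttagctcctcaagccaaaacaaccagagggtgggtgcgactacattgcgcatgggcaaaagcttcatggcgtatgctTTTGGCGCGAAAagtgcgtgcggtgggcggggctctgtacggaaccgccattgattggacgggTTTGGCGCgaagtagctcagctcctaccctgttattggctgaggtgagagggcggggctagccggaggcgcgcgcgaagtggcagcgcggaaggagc
Cdc6: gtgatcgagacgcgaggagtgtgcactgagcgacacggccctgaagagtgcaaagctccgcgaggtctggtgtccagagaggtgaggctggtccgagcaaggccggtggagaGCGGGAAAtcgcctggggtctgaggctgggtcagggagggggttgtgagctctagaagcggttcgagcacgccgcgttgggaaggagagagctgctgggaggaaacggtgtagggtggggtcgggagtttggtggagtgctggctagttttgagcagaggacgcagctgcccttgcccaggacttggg
A promoter sequence was at hand for 14452 of the 18193 genes, and 934 of these (6.46%) held a match. The share was 42.6% for the G1/S and replication list (20 of 47) and 11.8% for the mitosis list (6 of 51). Among genes called higher in QKO it was 5.63% (12 of 213), and among genes called lower 0 of 26 held one. Seen from the motif, 1.28% of the 934 genes with a match were called higher and 1.49% of the 13518 genes without one. The median difference was 0.14 for genes with a match and 0.09 for those without. A match is only a run of letters and not a measured binding site.

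Among 13 measured E2f, Dp and pocket protein genes, only Rb1 was called lower and only E2f6 higher, beside 1.61% of all genes called. E2f6 read 7.80, 8.08 and 7.83 in TKO and 8.57, 8.57 and 8.23 in QKO, with no overlap. The difference was 0.55 ± 0.13 (adjusted p = 0.031), and it was 0.35 with an adjusted p of 0.20 after quantile normalization. The call was also lost without QKO crypts 1, QKO crypts 2, TKO crypts 1 or TKO crypts 3. The other E2f6 probe set differed by -0.37. Rbl1 differed by 0.33 ± 0.19 and Rbl2 by 0.10 ± 0.20. The repressors E2f4 and E2f5 differed by 0.06 ± 0.13 and 0.04 ± 0.17, and E2f7 and E2f8 by 0.28 ± 0.30 and -0.22 ± 0.30. The list of D cyclins, G1 kinases and inhibitors held 16 measured genes, of which only Skp2 was called, again beside 1.61% of all genes. Skp2, which targets the inhibitor p27 for destruction, read 7.94, 8.57 and 8.49 in TKO and 8.80, 9.22 and 9.26 in QKO. Its difference of 0.76 ± 0.19 (adjusted p = 0.046) was lost after quantile normalization (0.58, adjusted p = 0.17) and without QKO crypts 2, QKO crypts 3, TKO crypts 1 or TKO crypts 3.

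Stress and fate programmes gave few calls, which lists of this size cannot set apart from the 1.61% of all genes called. Over all 18193 genes, 3147 had an unadjusted p under 0.05, 64.2% were above 0 and the median was 0.08. By limma, 0 of 28 p53 target genes were called, although 10 had an unadjusted p under 0.05 and 24 had a difference above 0, with a median of 0.39, which was 0.24 after quantile normalization and 0.23 without QKO crypts 1. Eda2r, a death receptor of that list, read 5.18, 4.92 and 4.98 in TKO and 7.56, 5.52 and 5.72 in QKO, with QKO crypts 1 far above the rest. Its difference was 1.24 ± 0.45 and fell to 0.59 without that array. For DNA damage and repair genes, 0 of 23 were called with 5 at an unadjusted p under 0.05, and the median was 0.28, which was 0.11 after quantile normalization and 0.16 without TKO crypts 3. Among 23 apoptosis genes 0 were called and 5 had an unadjusted p under 0.05. Crypt stem cell markers gave 0 calls of 23 (2 at an unadjusted p under 0.05). Lgr5, which marks the stem cells at the crypt base, read 5.82, 6.07 and 5.18 in TKO and 5.65, 6.00 and 5.43 in QKO. Olfm4, another marker of these cells, read between 13.02 and 13.43 on all 6 arrays. Goblet, Paneth and tuft cell markers gave 0 calls of 23, 15 and 18, with 1, 0 and 0 at an unadjusted p under 0.05.

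**Figure D2:**
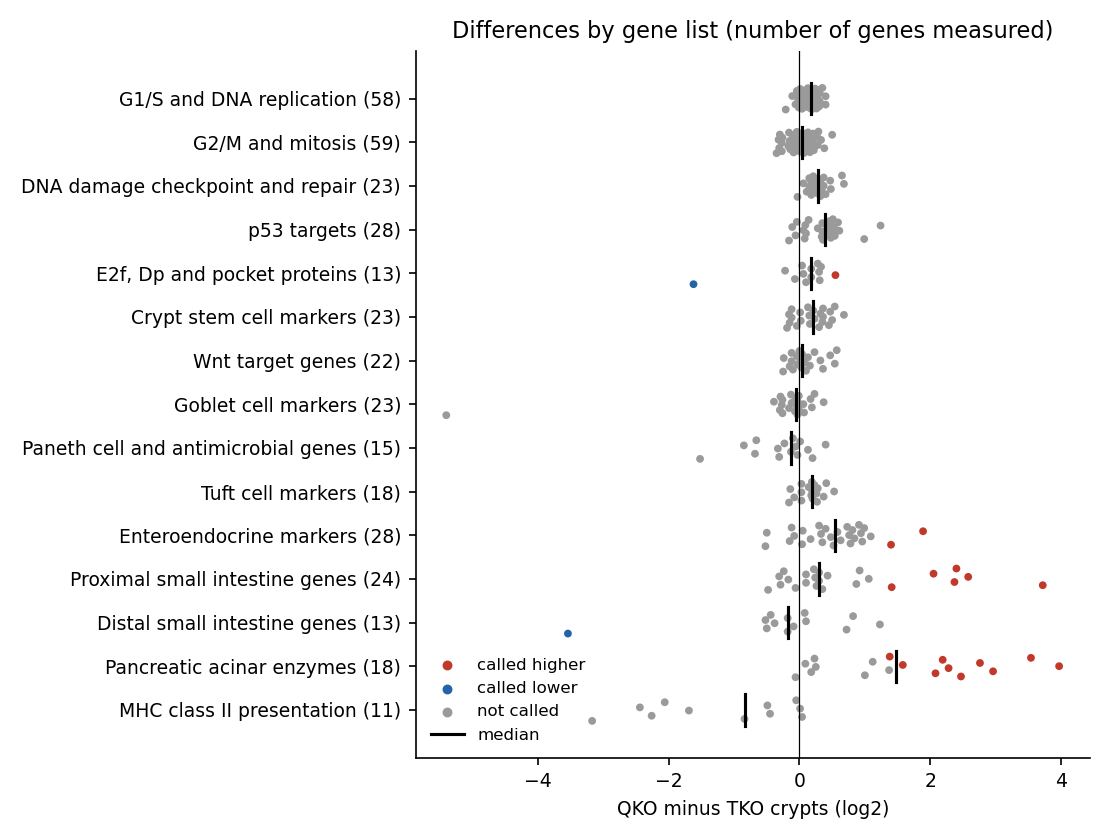
Differences of single genes in QKO minus TKO crypts (log2) for 15 gene lists, with the number of genes measured in brackets and a black bar at the median. The G1/S list has its median at 0.17 and no coloured point, the pancreatic enzymes have 10 red points and a median of 1.48, and the grey point at -5.40 is Retnlb.

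Genes of pancreatic digestive enzymes made the largest group of rises. Of 18 genes of the acinar list, 10 were called higher in QKO crypts and 0 lower, with a median of 1.48 over the 18, against 1.42% of all genes called higher. Acinar cells are the enzyme-making cells of the pancreas, and small intestinal epithelium is not their site. Cela2a, a pancreatic elastase, read 3.92, 3.65 and 3.84 in TKO and 9.51, 4.49 and 9.33 in QKO. Cpb1, carboxypeptidase B, read 4.22, 4.11 and 4.35 in TKO and 8.79, 5.35 and 9.18 in QKO. Cpa1, carboxypeptidase A, read 4.49, 4.27 and 4.40 in TKO and 8.29, 5.12 and 8.63 in QKO. QKO crypts 1 and 3 stood far above all TKO arrays for these genes, while QKO crypts 2 lay only slightly above them.

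The differences were 3.97 ± 0.74 for Cela2a (adjusted p = 0.0077), 3.54 ± 0.58 for Cpb1 (adjusted p = 0.0023) and 2.96 ± 0.51 for Cpa1 (adjusted p = 0.0037). The call of Cela2a was lost without QKO crypts 1. Pnliprp1, a pancreatic lipase relative, differed by 2.76 ± 0.48, and Cel, the bile salt lipase, by 2.19 ± 0.34. Cela1, an elastase with a higher level in these crypts, read 8.43, 8.03 and 7.65 in TKO and 10.15, 8.78 and 9.92 in QKO. The proteases Ctrb1, Ctrl, Prss2 and Cela3b differed by 2.47, 2.28, 2.08 and 1.38, and for these QKO crypts 2 overlapped the TKO arrays. Their calls were each lost without QKO crypts 1 and without TKO crypts 3, and further arrays mattered for Ctrb1, Ctrl and Cela3b. They belong to families with near-identical copies, which a probe set may not separate. The mean over the 18 genes read 6.87, 6.65 and 6.57 in TKO and 8.87, 7.08 and 9.03 in QKO. Without QKO crypts 2 the count was 11 of 18 with a median of 2.06, and without QKO crypts 1 it was 5 of 18 with a median of 1.35. When only the QKO and TKO crypt arrays were fitted, the calls of Cela2a, Cpb1, Cpa1, Pnliprp1, Cel and Cela1 were lost. The other called enzymes were not followed in that fit.

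Of the 18, 8 genes were not called. Gp2, a zymogen granule protein, read 4.37, 4.55 and 4.67 in TKO and 7.21, 4.49 and 6.01 in QKO, a difference of 1.37 ± 0.37 that missed the threshold (adjusted p = 0.067). Clps, colipase, read 8.70 to 10.15 in TKO and 9.64 to 9.73 in QKO. Some further genes were looked at after the values were seen. Ptf1a and Rbpjl, which encode transcription factors of acinar cells, lay between 4.27 and 5.55 on all 6 arrays and differed by 0.10 ± 0.13 and 0.02 ± 0.14. Reg2, of the Reg family of pancreatic and gut proteins, read 6.74, 6.35 and 6.54 in TKO and 8.02, 6.98 and 8.31 in QKO and was called (1.22 ± 0.22, adjusted p = 0.0065). Of the enzyme genes outside the list, Ctrc and Amy1 differed by 0.64 ± 0.26 and 0.44 ± 0.18 and were not called. Iapp, amylin of the islets, differed by 0.82 ± 0.29 and Cuzd1, a zymogen granule protein, by 0.41 ± 0.20, also without a call. Ins2, insulin of the islets, differed by -0.12 ± 0.13, and Krt19, a keratin of pancreatic ducts and of intestinal epithelium, by 0.07 ± 0.11. In villi 0 of the 18 acinar genes were called higher in QKO and 1 lower, against 5.51% and 1.17% of all genes. Cela2a differed there by 0.40. The difference between the compartments was called for none of the 18. The part of pancreatic tissue in these values was not tested.

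Promoters of the acinar genes held no E2f match (0 of 16 with a sequence). They were also searched for the E-box letters CACCTG and CAGCTG on either strand, a choice made after the values were seen. This E-box is a binding motif of acinar transcription factors. It was present in 9 of the 10 called genes and in 1 of 6 that were not called, and in 36.6% of all promoters. The genes were split by the same values that were known when the motif was chosen, so these counts test nothing. The Cela2a promoter lies at chr4:141825956-141826255 and the Cpb1 promoter at chr3:20275684-20275983, both on the minus strand of GRCm38.p6. They are shown for the 2 enzymes with the largest rises, with the E-box in capitals.
Cela2a: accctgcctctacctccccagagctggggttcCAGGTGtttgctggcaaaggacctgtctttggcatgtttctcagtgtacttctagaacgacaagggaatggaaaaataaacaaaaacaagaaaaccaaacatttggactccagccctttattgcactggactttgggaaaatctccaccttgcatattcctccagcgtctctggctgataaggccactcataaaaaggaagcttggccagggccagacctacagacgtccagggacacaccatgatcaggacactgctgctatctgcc
Cpb1: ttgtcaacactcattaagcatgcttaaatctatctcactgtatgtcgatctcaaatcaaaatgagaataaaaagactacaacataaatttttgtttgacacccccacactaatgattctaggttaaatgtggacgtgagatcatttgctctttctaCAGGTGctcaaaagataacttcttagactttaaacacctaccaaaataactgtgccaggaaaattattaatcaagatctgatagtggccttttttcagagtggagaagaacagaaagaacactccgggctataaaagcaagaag
The proximal small intestine list held the E-box in 11 of 15 promoters (73.3%). Across all genes with a promoter, 1.61% of those with this E-box were called higher and 1.40% of those without it, so the motif does not mark called genes in general.

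Some genes of the proximal small intestine rose as well. Of 24 genes of the list, 6 were called higher in QKO crypts and 0 lower, against 1.42% and 0.181% of all genes. The list's median was 0.30, beside 0.08 for all genes. A difference above 0 was seen in 18 of the 24, and in 64.2% of all genes. S100g, the calcium-binding calbindin-D9k of duodenal absorption, read 8.32, 7.96 and 6.33 in TKO and 11.46, 11.09 and 11.22 in QKO. Slc40a1, the iron exporter ferroportin, read 8.68, 8.64 and 8.84 in TKO and 11.21, 11.42 and 11.27 in QKO. Pdx1, a transcription factor of duodenum and pancreas, read 5.21, 6.01 and 5.85 in TKO and 8.01, 7.99 and 8.17 in QKO. The groups were apart for each of these 3 probe sets, and QKO crypts 2 lay with the other QKO arrays. A second Pdx1 probe set read 4.86, 5.09 and 5.32 in TKO and 6.34, 5.23 and 6.03 in QKO, where QKO crypts 2 overlapped TKO, and its difference of 0.78 ± 0.26 was not called (adjusted p = 0.15).

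S100g was 13.2-fold higher in QKO (3.72 ± 0.55, adjusted p = 0.0013), Slc40a1 5.97-fold (2.58 ± 0.40, adjusted p = 0.0016) and Pdx1 5.17-fold (2.37 ± 0.33, adjusted p = 8.3e-04). Anxa10, an annexin, rose by 2.40 ± 0.31, from 4.04, 3.68 and 3.61 to 6.91, 5.83 and 5.81. Slc11a2, the importer of ferrous iron, differed by 2.05 ± 0.41, and its call was lost without QKO crypts 1 or TKO crypts 1. Its other probe sets differed by 1.89 ± 0.36, 0.77 ± 0.18 and 0.18 ± 0.16. The last was not called by limma over all probe sets (adjusted p = 0.63). Slc46a1, the folate transporter, differed by 1.41 ± 0.34, and its call was lost with any one array other than QKO crypts 1 left out. The list's other members spanned low to high levels: Lct, lactase, read 12.35 to 13.23 and Gata4, a transcription factor of the proximal gut, 8.15 to 8.90 over the 6 arrays, and neither was called. Onecut2, a further proximal transcription factor, read 7.35, 8.33 and 8.08 in TKO and 9.13, 8.94 and 8.87 in QKO without passing the test (1.06 ± 0.29, adjusted p = 0.072). Akp3, an intestinal alkaline phosphatase that stood in the list of digestion, rose by 3.87 ± 0.63 (adjusted p = 0.0024), from 5.67, 7.15 and 6.53 to 10.23, 10.65 and 10.06. With any one array left out, 4 or 5 of the 24 genes were called.

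Of 13 distal small intestine genes, only Fabp6 was called, and it was lower. Among all genes 1.61% were called and 0.181% were called lower. Fabp6 encodes the bile acid carrier of the ileum. It read 9.68, 7.71 and 8.44 in TKO and 4.75, 5.05 and 5.39 in QKO, a difference of -3.54 ± 0.84 (adjusted p = 0.034). The call was lost after quantile normalization (-3.57, adjusted p = 0.058), and also without QKO crypts 1, QKO crypts 2, TKO crypts 1 or TKO crypts 3. The list's median was -0.18, and it was 0.02 without TKO crypts 1. Above 0 were 64.2% of all genes and 5 of the 13. An unadjusted p under 0.05 was reached by 3147 of the 18193 genes and by 3 genes of the list. Besides Fabp6 these were Muc3, a membrane mucin (1.23 ± 0.38), and Slc9a3, a sodium-proton exchanger (0.72 ± 0.31), both above 0 and not called. Slc51a, a subunit of the bile acid exporter, read 11.05 to 11.61 in TKO and 11.21 to 11.73 in QKO. The transcription factors Cdx1, Cdx2 and Hnf4a, looked at after the values were seen, differed by -0.03 ± 0.19, -0.12 ± 0.11 and -0.07 ± 0.10. Whether the samples came from the same stretch of intestine was not tested.

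**Figure D3:**
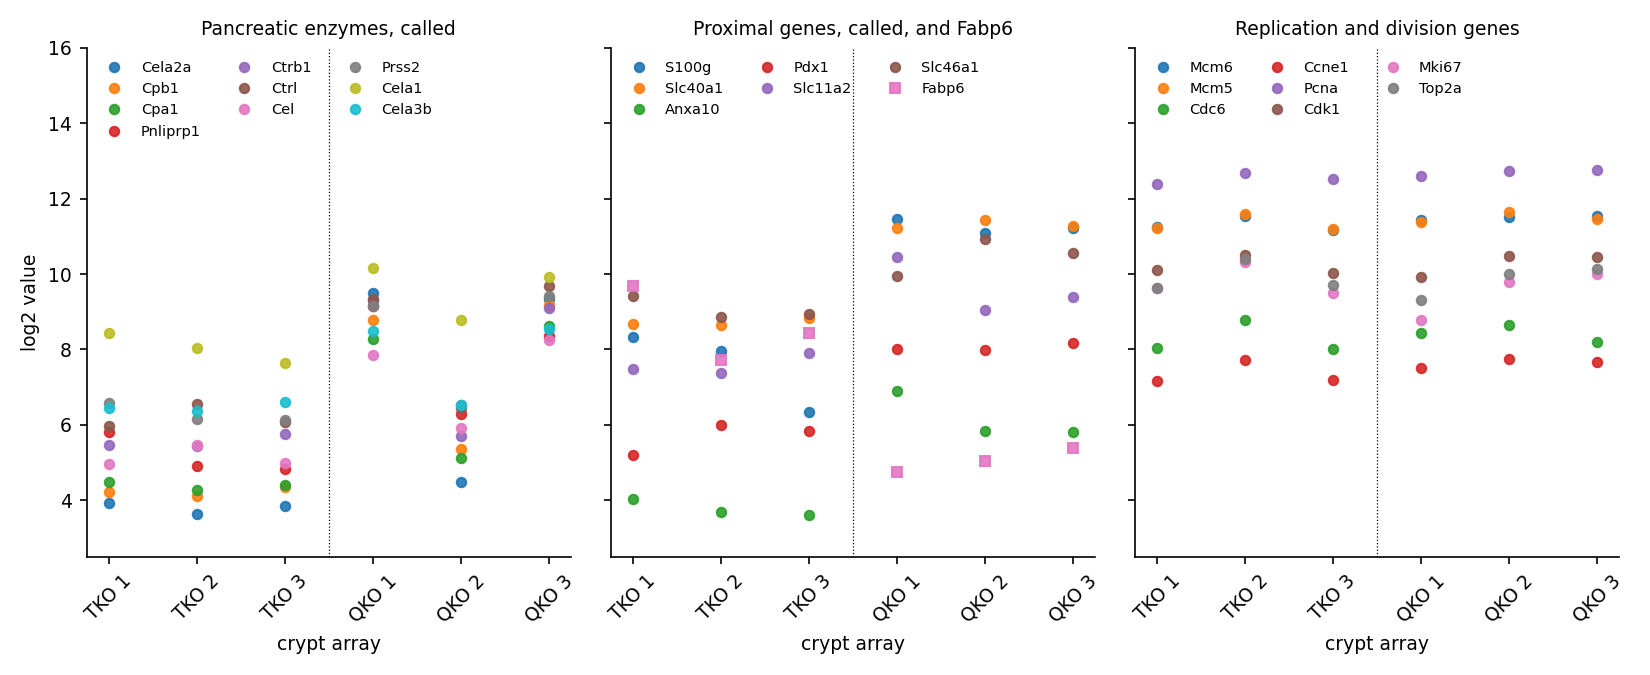
Log2 values on each crypt array for the 10 called pancreatic enzymes (left), the 6 called proximal genes and Fabp6, drawn as squares (middle), and 8 replication and division genes (right). The enzymes are high on QKO 1 and QKO 3 and close to TKO levels on QKO 2, the proximal genes are high on all 3 QKO arrays, and the replication and division genes overlap between the groups.

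Several large single differences lay outside these lists. Ear3, of the eosinophil-associated ribonuclease family, read 3.04, 2.87 and 3.05 in TKO crypts and 8.55, 9.37 and 8.08 in QKO crypts (5.68 ± 0.29, adjusted p = 9.8e-11). In the Rb and WT crypts it read 8.89 to 9.80, so the TKO arrays were the low ones. Near-identical members of this family may share its probes. Ccnb1ip1, which serves meiotic recombination, read 4.09, 4.13 and 4.07 in TKO and 8.38, 7.94 and 9.31 in QKO (4.45 ± 0.33, adjusted p = 7.1e-08). St3gal4, a sialyltransferase, fell from 12.08, 12.03 and 12.20 in TKO to 4.52, 5.69 and 4.31 in QKO (-7.26 ± 1.43, adjusted p = 0.012), a 154-fold lower value. It was equally split within a genotype: the WT crypt arrays, by label, read 12.77, 5.41 and 6.53. Tmem87a, a membrane protein, rose by 3.04 ± 0.61 and Otop3, a proton channel, by 2.32 ± 0.47. Both calls depended on single arrays: Tmem87a was lost without QKO crypts 1, TKO crypts 1 or TKO crypts 3, and Otop3 without QKO crypts 1, QKO crypts 2 or TKO crypts 2.

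Among the falls, Pmp22, a membrane protein best known from myelin, read 10.34, 9.84 and 10.20 in TKO and 5.42, 6.52 and 7.60 in QKO. Clca4a, of the calcium-activated chloride channel regulator family, read 8.93, 9.49 and 10.29 in TKO and 5.71, 5.29 and 7.30 in QKO. The groups did not overlap, and the falls were -3.61 ± 0.65 (adjusted p = 0.0057) and -3.47 ± 0.49 (adjusted p = 8.6e-04). Ang, a secreted ribonuclease, fell by 3.23 ± 0.37 (adjusted p = 1.5e-04). Its other probe sets differed by -2.83 ± 0.25 and -0.77 ± 0.22. The latter was not called by limma over all probe sets (adjusted p = 0.087). Mtmr11, of the myotubularin family, fell by 1.52 ± 0.23. Car4, a membrane carbonic anhydrase, fell by 1.56 ± 0.34, and its call was lost without QKO crypts 3, TKO crypts 1 or TKO crypts 3. Naaladl1, an intestinal peptidase, fell by 1.42 ± 0.28, and its call was lost without QKO crypts 2 or TKO crypts 1. Tmigd1, an adhesion protein of epithelia, fell by 2.00 ± 0.51, but its adjusted p of 0.049 was above the threshold in 5 of the 6 fits that each left out an array. Retnlb, a goblet cell hormone, had a larger difference (-5.40 ± 1.59) that was not called (adjusted p = 0.088). It read 3.98, 12.71 and 11.49 in TKO and 3.51 to 4.52 in QKO, so the low values included TKO crypts 1.

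Rb1 lies on chromosome 14, which held 18 called genes among 640 measured (2.81%, against 1.61% of all genes). Chromosome 3 held 2.41% and chromosome 8 held 2.25%, and the shares were not tested against each other. In one stretch, from Ttc5 to Rec8 in the RefSeq gene order (GRCm38.p6), 10 of 91 measured genes were called, 5 higher and 5 lower. It holds Ccnb1ip1, Ang, Rpgrip1 and Rec8. Rpgrip1, a protein of the cilium, fell by 1.56 ± 0.30 and its call was lost without QKO crypts 1. Rec8, a meiotic cohesin subunit, read 7.87, 8.13 and 7.99 in TKO and 6.66, 6.64 and 7.16 in QKO. Its fall of 1.17 ± 0.24 was lost without QKO crypts 1, QKO crypts 2, TKO crypts 2 or TKO crypts 3. Nearer to Rb1, Slc39a14, a zinc and iron transporter, rose by 1.32 ± 0.19 and its neighbour Piwil2, a Piwi protein of the germ line, by 2.01 ± 0.31. They lie 23 and 22 measured genes away from Rb1. On chromosome 2, 5 of 36 measured genes from Exd1 to Adal were called, Tmem87a among them, and all were higher. On chromosome 9, 3 of 25 genes from St3gal4 to Slc37a2 were called. These stretches were picked after their values were seen and were not tested, and Ear3 has no position in the table used. The cause was not tested.

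**Figure D4:**
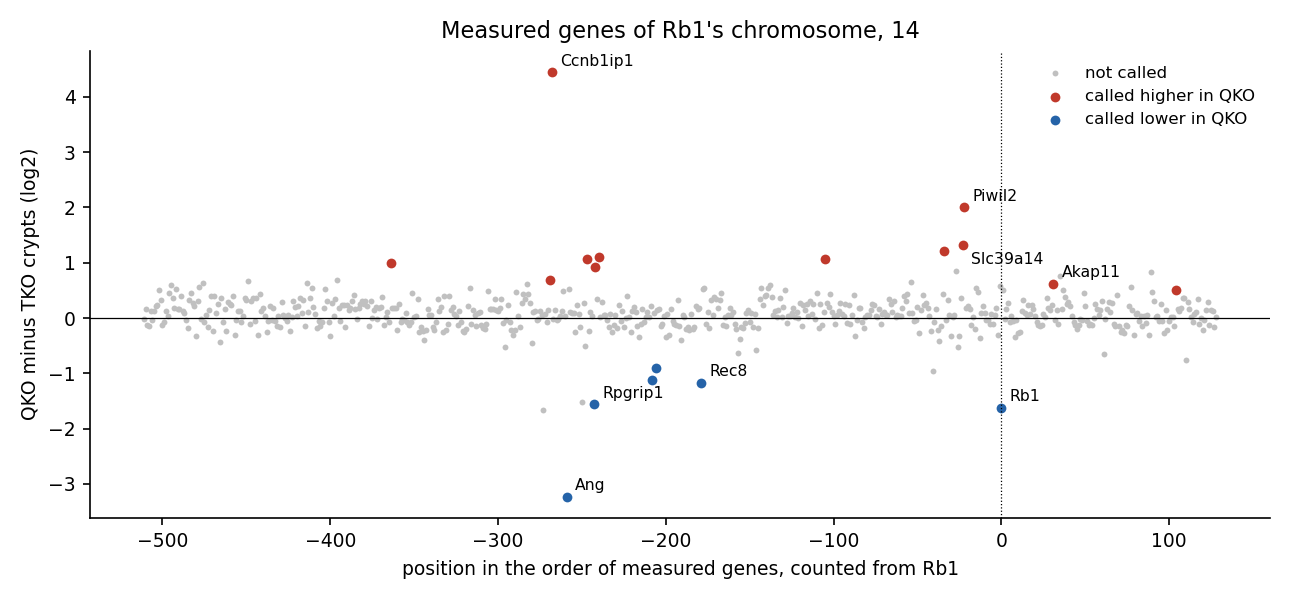
QKO minus TKO crypts (log2) for the measured genes of chromosome 14, placed by their order along the chromosome and counted from Rb1 at 0. Called genes are coloured; 10 of them lie in the stretch from Ttc5 to Rec8, with Ccnb1ip1 at 4.45 and Ang at -3.23, and Slc39a14 and Piwil2 lie close to Rb1.

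The same loss was compared in villi. There 1215 genes (6.68%) were called in QKO minus TKO, 1003 higher (5.51%) and 212 lower (1.17%). Poly-A controls averaged 11.28 to 11.89 on the QKO villus arrays and 10.52 to 10.77 on the TKO villus arrays. Controls added at hybridization averaged 11.23 to 11.45 and 10.76 to 10.95. Neither kind overlapped between the villus groups, and their part in the villus values was not tested. The difference between the compartments, tested as a contrast of the same fit, was called for 11 genes (0.0605%), with 1695 at an unadjusted p under 0.05. All 11 had a larger value in villi. With arrays of one genotype and number as a random block, 25 genes were called, 24 of them larger in villi. For the TKO and QKO arrays this pairing is borne out by the values, as given with the processing. The block also paired the Rb arrays by number, where the sexes differ. Eif2s3y read 3.11 and 3.12 on Rb crypts 1 and 3, but 9.24 on both Rb villi 1 and Rb villi 3. The part of these false pairs in the blocked fit was not tested. Trpv6, the apical calcium channel, read 4.98, 4.86 and 4.75 in TKO villi and 8.15, 8.30 and 10.83 in QKO villi, but 5.99, 5.91 and 5.47 in QKO crypts against 4.81, 4.78 and 5.02 in TKO crypts. Its villus difference exceeded its crypt difference by 3.31 ± 0.57 (adjusted p = 0.022). Cybrd1, the ferric reductase of the duodenal brush border, read 5.71, 5.25 and 5.30 in TKO villi and 8.84, 8.20 and 8.52 in QKO villi. In crypts it differed by 0.43 ± 0.23, so the villus difference was larger by 2.67 ± 0.32 (adjusted p = 6.9e-04).

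Anxa10 rose in both compartments and more in villi, by 2.80 ± 0.44 (adjusted p = 0.010). Capn3, a calpain protease, and Hspb1, a small heat shock protein, differed by 0.07 and -0.28 in crypts and by 2.52 and 1.75 in villi. S100g, Slc40a1 and Pdx1 were called higher in both compartments, with villus differences of 4.39, 3.35 and 2.69, and the compartments did not differ by the test for any of them. Of the 24 proximal genes, 10 were called higher in villi and 0 lower, against 5.51% and 1.17% of all genes.

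Of 28 markers of enteroendocrine cells, the hormone cells of the gut, 2 were called higher in crypts, Tph1 and Scg2. Among all genes 1.42% were called higher there. An unadjusted p under 0.05 was reached by 11 of the 28 and by 3147 of the 18193 genes. The list's median was 0.55, or 0.39 after quantile normalization, and 23 of the 28 were above 0, as were 64.2% of all genes. Tph1, the first enzyme of serotonin synthesis, read 6.01, 5.89 and 6.44 in TKO and 7.83, 8.16 and 8.02 in QKO. Scg2, a granin of secretory granules, read 5.70, 5.40 and 5.75 in TKO and 6.98, 7.18 and 6.87 in QKO. The groups were apart for both, with differences of 1.89 ± 0.31 (adjusted p = 0.0027) and 1.40 ± 0.26 (adjusted p = 0.0076), and Scg2 was lost without QKO crypts 2. In villi 18 of 28 were called higher and 0 lower, against 5.51% and 1.17% of all genes. The list's median there was 1.60. The difference between compartments was called only for Sct, the hormone secretin, at 1.75. Sct stood in both lists, with 0.30 ± 0.21 in crypts and 2.06 ± 0.21 in villi. Markers of T cells, B cells, myeloid cells, stroma, smooth muscle, endothelium, glia and blood gave 0 calls by limma in crypts, with 0 to 2 genes a list at an unadjusted p under 0.05. Most T cell markers nevertheless lay lower in QKO crypts, with 3 of 21 above 0 and a median of -0.38 (-0.48 after quantile normalization). Genes of MHC class II presentation had 2 of 11 above 0 and a median of -0.84, also without a call. The medians of the other marker lists ran from -0.10 to -0.01. In villi some of these markers were called higher in QKO beside the enteroendocrine ones: 7 of 23 stromal genes (median 0.91), 7 of 24 myeloid genes (0.54) and 4 of 21 T cell genes (0.94). The part of such cells in the crypt and villus values was not tested.

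**Figure D5:**
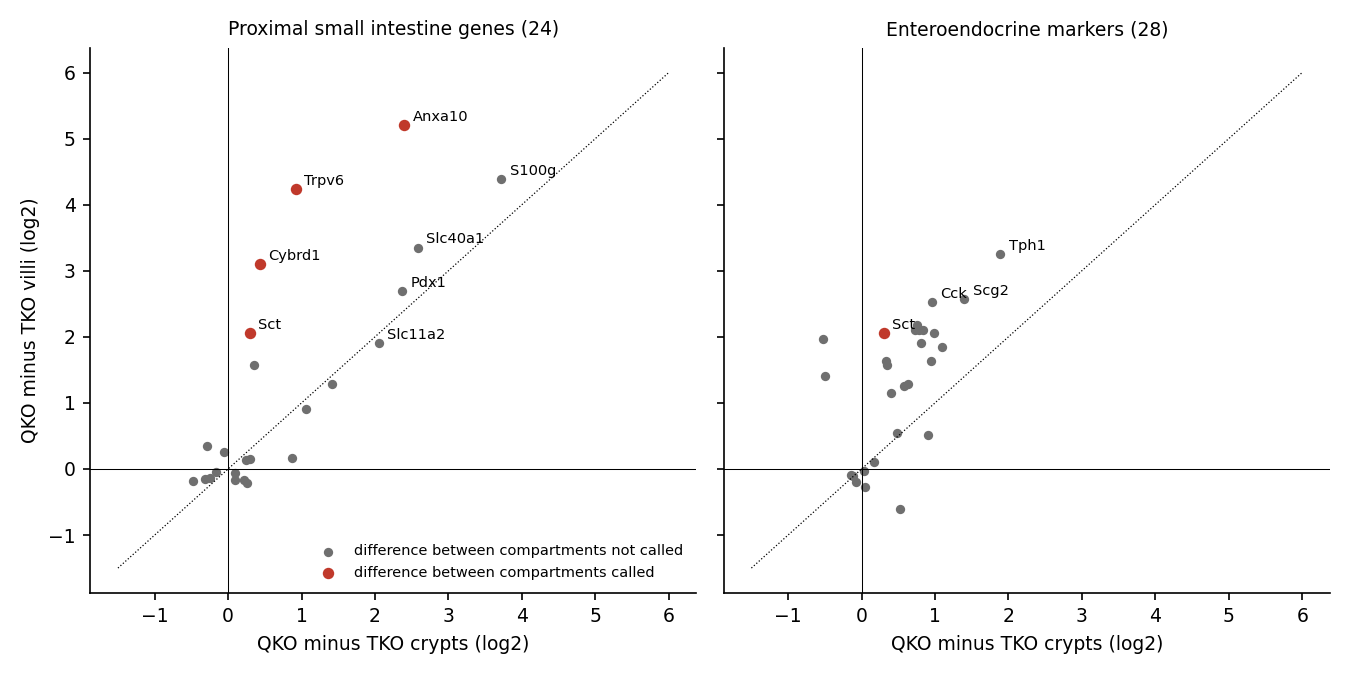
QKO minus TKO in villi against QKO minus TKO in crypts (log2 differences) for 24 proximal small intestine genes and 28 enteroendocrine markers, with the dotted line at equal values. Red points, for which the difference between compartments was called, are Anxa10, Trpv6, Cybrd1 and Sct, and all lie above the line.

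The loss of Rb without the E2f1, E2f2 and E2f3 loss was measured in the Rb and WT crypts. By Rb1, the library labelled WT crypts 3 and that labelled Rb crypts 2 contradicted their genotypes: Rb1 read 10.31, 10.59 and 8.46 in WT and 8.23, 10.25 and 8.87 in Rb. With all 6 arrays 0 genes (0%) were called by limma, and 709 had an unadjusted p under 0.05. Without these 2 arrays, which leaves 2 a group and assumes that they vary like the other groups, 18 genes (0.0989%) were called, 10 higher and 8 lower in Rb, and 1873 had an unadjusted p under 0.05. Rb1, 1 of the 18, then fell by 1.90 ± 0.20. The 2 arrays were left out by their Rb1 values, so this fall follows from that choice and tests nothing.

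The G1/S list depended on the same 2 arrays. In Rb minus WT it held 0 called genes of 58 with a median of 0.13 over all arrays, and 4 called higher with a median of 0.33 without them, beside 0.01 for all genes. The 4 were Ccne1, Ccne2, Pcna and Prim1, which encode the E cyclins, the replication clamp and a primase subunit. Ccne1 read 7.42, 7.24 and 8.07 in WT and 8.98, 7.30 and 8.99 in Rb, so the libraries labelled WT crypts 3 and Rb crypts 2 again lay toward the other group. Without them it differed by 1.66 ± 0.23 (adjusted p = 0.004) and Pcna by 0.80 ± 0.12 (adjusted p = 0.006). In QKO minus TKO crypts these genes differed by 0.27 ± 0.32 and 0.17 ± 0.17. The difference between the 2 comparisons, tested without the 2 libraries, was -1.39 ± 0.30 for Ccne1 (adjusted p = 0.065) and -0.63 ± 0.15 for Pcna (adjusted p = 0.088), so neither was called. Over the 58 genes its median was -0.20, beside 0.08 for all genes, with 0 called by limma and 11 at an unadjusted p under 0.05. Outside the list, it was called for Cdkn2c, an inhibitor of G1 kinases, at -1.23 ± 0.21 (adjusted p = 0.019), and for Wdhd1, a replication fork protein, at -1.19 ± 0.23 (adjusted p = 0.048). These genes were picked out after their values were seen. Cdkn2c read 5.90 to 6.19 on the TKO and QKO crypt arrays, below the median of all values (6.39). It read 9.12 to 10.46 on the WT and Rb crypt arrays, and the part of this level in its contrast was not tested.
 With all arrays, the contrast of QKO minus TKO minus the same difference of Rb and WT was called for 5 genes (0.0275%), with 2351 at an unadjusted p under 0.05. They were Ear3 (5.75 ± 0.41), Ccnb1ip1 (4.52 ± 0.46), Anxa10 (2.70 ± 0.44), Tbcel, a relative of a tubulin chaperone (1.02 ± 0.16), and St3gal4 (-12.06 ± 2.03). Without the arrays that went against their labels, 25 genes were called and St3gal4 was not among them (-11.47, adjusted p = 0.052). Ear3 and Ccnb1ip1 were called in all 22 fits tried. Over the 18 acinar genes the median of this contrast was 1.62, and over the G1/S list 0.03, with 0 genes called in each by limma and 10 and 0 at an unadjusted p under 0.05. The WT and Rb crypt arrays, with poly-A controls at 5.44 to 6.38, stood apart from the TKO and QKO arrays, and the controls' part in this contrast was not tested.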

How the data were processed

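Total RNA of crypts and villi was hybridised to 24 arrays, with 3 ug used for labelling per the labels' protocols. The authors deposited log2 values for each probe set. How these were summarised and normalized was not given in the sources used here, and no further scaling was applied. The platform annotation named 1 gene for 34945 of 45101 probe sets, several for 932 and none for 9160; 64 were controls. Symbols were updated through Entrez identifiers.

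Groups were taken from the labels. The limma package (3.58.1, R 4.3.3) fitted all 8 group means over the 24 arrays with an intensity trend, and its 2-sided p-values were adjusted by Benjamini-Hochberg separately for each comparison; called means an adjusted p under 0.05. The fit was tested on simulated data. The number of arrays limits the precision. The samples, lists, comparisons and alternatives were chosen with earlier results of these data known. Genes named were the 12 largest called rises and falls without overlap and above 6.39, the median of all values, plus up to 3 members of each of 7 lists with calls, Rb1, Rbl1, Rbl2 and E2f1 to E2f8. Other comparisons named up to 5 rises and 5 falls, and examples from the lists were added after their values were seen.

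Deviations from group means correlated between same-numbered crypts and villi (TKO 0.61, 0.55 and 0.64; QKO 0.55, 0.25 and 0.37), so those numbers pair the compartments. Alternatives were quantile normalization, median centring, no intensity trend, no dim genes, other probe set rules, fewer groups, array weights, replicate blocks and each array left out. Values of Rb minus WT without the 2 libraries that contradict their labels were added after seeing the data. Figures were drawn with matplotlib 3.10.9.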

Additional observations from a re-analysis of the deposited data

Results flagged for a closer look

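Effects that differ between groups by a tested contrast are listed here. QKO minus TKO was larger in villi than in crypts for 11 genes: Trpv6 (3.31), Anxa10 (2.80), Cybrd1 (2.67), Capn3 (2.45), Hspb1 (2.03), Stat4 (1.85), Sct (1.75), Rgs10 (1.51), Tuba1a (1.34), Gsdma (1.32) and Ctla2b (1.19). Capn3 was called in all 22 fits tried; Stat4, a transcription factor of lymphocytes, in 11 of 22 and Ctla2b in 12 of 21. The 5 genes whose QKO minus TKO difference in crypts differed from that of Rb minus WT were Ear3 (5.75), Ccnb1ip1 (4.52), Anxa10 (2.70), Tbcel (1.02) and St3gal4 (-12.06). St3gal4 was called in 12 of 22 fits, and its values fell into high and low arrays within the WT crypt label.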

How the results depend on the processing

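The count of 292 genes in QKO minus TKO crypts ran from 93 to 417 when 1 array was left out, and was 63 with only the groups compared, 156 after quantile normalization, and 106 without QKO crypts 2 and QKO villi 3, a setting chosen after seeing the data; a fit with sex as a covariate, also chosen later, called 255. The 11 genes of the villus minus crypt contrast became 2 with only the groups compared, 26 with array weights, 19 with every probe set, 18 after quantile normalization, 25 with the replicate block and 23 without QKO crypts 2 and QKO villi 3, and from 4 to 94 when 1 array was left out. The 5 genes of the contrast with Rb minus WT became 57 with array weights, 8 with median centring, 12 with every probe set, 2 with the mean of probe sets, 3 with only the groups compared, 17 with the replicate block, 25 without WT crypts 3 and Rb crypts 2, which contradict their labels, and from 2 to 21 when 1 array was left out. The cause was not tested. QKO and TKO crypts share only a number (correlations of deviations 0.28, 0 and 0.17); the replicate block called 325 genes there, 273 of them among the 292, and QKO crypts 2 and 3 correlated no better with their own number than with another. Of 31 genes named as called, 18 were called in all 6 fits that each left out a crypt array. None reversed. Fits that leave out an array assume that the remaining arrays vary like the other groups. The number of arrays, and not a depth, limits these values.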

Other observations

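Genes best known from the liver were among the called rises, and were picked out after their values were seen. Afp, alpha-fetoprotein, read 7.84, 8.67 and 9.43 in TKO crypts and 9.49, 11.30 and 10.72 in QKO crypts (1.86 ± 0.45, adjusted p = 0.038). Cpn2, a carboxypeptidase N subunit, rose by 1.78 ± 0.33, Crp, C-reactive protein, by 1.55 ± 0.34 and Proz, protein Z of the coagulation system, by 1.05 ± 0.24. Their calls were all lost without QKO crypts 2. Alb, albumin, was called at a low level (0.50 ± 0.12, adjusted p = 0.038). Ttr, Ahsg, Fgb, Apoh, Serpina1b and Apob were not called, with differences of -0.02, 0.03, 0.08, 0.11, -0.32 and 0.70. No list of liver genes was fixed, and no share of them is given.

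Among genes of metal handling, likewise picked out after their values were seen, some were called and others not. Slc30a10, a manganese exporter, read 6.21, 5.95 and 6.97 in TKO and 8.43, 7.74 and 8.52 in QKO (1.86 ± 0.35, adjusted p = 0.0096). Ncoa4, the receptor that delivers ferritin to lysosomes, rose by 0.99 ± 0.22 and Fth1, the ferritin heavy chain, by 0.40 ± 0.10 (adjusted p = 0.047). Tfrc, the transferrin receptor, differed by -0.01 ± 0.24, the metallothioneins Mt1 and Mt2 by -0.17 ± 0.47 and -0.43 ± 0.81, Hmox1, heme oxygenase, by -0.15 ± 0.14 and Slc39a4, a zinc importer, by 0.76 ± 0.24, all without a call. Cyp1a1, the main target of the aryl hydrocarbon receptor, read 5.03, 6.54 and 6.29 in TKO and 7.74, 8.55 and 7.78 in QKO; the groups did not overlap, but the difference of 2.07 ± 0.96 was not called (adjusted p = 0.27).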
